A study of Mus musculus with 12 samples.

Results

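Lysosomal cathepsins, the aspartic protease napsin A and the lysosome-associated membrane proteins LAMP1 and LAMP2 were followed in mouse embryonic stem cells exposed to hydrogen peroxide. The genes were Ctsh, Ctsl, Ctsb, Ctsd, Ctsz, Ctsc, Napsa, Lamp1 and Lamp2, and all probe sets that the platform annotation gives to one of these symbols alone were taken. These are 9 of the 8251 genes, and 15 of the 12488 probe sets, of the Affymetrix MG_U74Av2 array. A probe set is a group of short oligonucleotides that read one transcript, and its MAS5 signal is a brightness on a linear scale. The genes were chosen with earlier results of these arrays known, in which Ctsh read lower and Napsa higher after 5 mM peroxide than in phosphate-buffered saline (PBS). The values of the 5 mM against PBS comparison are therefore a description of these genes and carry no test, and no p-value is given for Ctsh or Napsa. Each of the other comparisons shares the 5 mM or the PBS arrays with that one. The p-values given there for the remaining genes are therefore a description too, and not independent evidence.

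All 12 samples were clone C2, a single clone of the E14tg2a embryonic stem cell line that carries a pair of targeted sites for the endonuclease I-SceI. They fell into 3 groups, cells in PBS without peroxide (n = 3), cells given 100 µM peroxide in PBS for 15 min (n = 4) and cells given 5 mM for 30 min (n = 5). The treated cells were returned to maintenance medium for 1 h before RNA was taken, and the time that the PBS cells spent in PBS or in medium is not given in the sources used here. Dose and exposure time differ together, and the labels do not tell separate cultures from repeat arrays. The p-values therefore rest on the variation among arrays of a group, and part of it may be technical.

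Cathepsins are proteases of the lysosome, the acidic compartment in which endocytosed and worn-out cell material is degraded. They are made as inactive precursors, sorted to lysosomes largely by mannose 6-phosphate receptors, and activated there by low pH and by other proteases, while cystatins inhibit the cysteine cathepsins. LAMP1 and LAMP2 are heavily glycosylated proteins that line the lysosomal membrane, and the transcription factors TFEB and TFE3 bind E-box sequences at many genes of this pathway. In the early mouse embryo, the visceral endoderm is an epithelium rich in endocytic vesicles and lysosomes.

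At 5 mM against 100 µM, Ctsl, Ctsc and Ctsz fell while Ctsd overlapped in all groups, so sequence at the start of genes of both kinds is given. RefSeq promoter windows of build GRCm38.p6, 250 bases before to 50 bases after a transcript start, were found for 6 of the 9 genes (Ctsl, Ctsd, Ctsz, Ctsc, Lamp1 and Lamp2). Both strands were searched for CACGTG, the core of the E-box bound by TFEB and TFE3, and for TCACGTG, a longer form that overlaps every CACGTG it contains. Ctsl and Ctsc are shown as 2 genes that fell, at chr13:64370471-64370770 on the minus strand and chr7:88277835-88278134 on the plus strand. Ctsd and Lamp1 are shown as 2 genes that did not fall, at chr7:142387778-142388077 on the minus strand and chr8:13158911-13159210 on the plus strand. Lamp1 overlapped in all groups too, but was called higher at 5 mM against 100 µM (log2 change 0.38, limma adjusted p = 0.0365). Lamp1 is therefore not shown as an unchanged gene, although several alternative fits lost that call. Each is written 5′ to 3′ in the direction of the gene, with CACGTG in capitals.
Ctsl: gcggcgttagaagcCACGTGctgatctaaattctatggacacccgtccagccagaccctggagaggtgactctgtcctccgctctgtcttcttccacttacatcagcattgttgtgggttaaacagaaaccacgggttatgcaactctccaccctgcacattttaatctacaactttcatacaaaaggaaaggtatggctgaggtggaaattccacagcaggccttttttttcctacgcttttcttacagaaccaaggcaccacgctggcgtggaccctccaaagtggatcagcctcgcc
Ctsc: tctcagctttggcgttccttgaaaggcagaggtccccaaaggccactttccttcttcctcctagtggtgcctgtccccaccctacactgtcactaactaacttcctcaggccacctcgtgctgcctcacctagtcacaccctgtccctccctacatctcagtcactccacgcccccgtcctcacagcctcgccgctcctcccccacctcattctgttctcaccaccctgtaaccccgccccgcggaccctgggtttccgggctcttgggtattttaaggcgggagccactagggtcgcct
Ctsd: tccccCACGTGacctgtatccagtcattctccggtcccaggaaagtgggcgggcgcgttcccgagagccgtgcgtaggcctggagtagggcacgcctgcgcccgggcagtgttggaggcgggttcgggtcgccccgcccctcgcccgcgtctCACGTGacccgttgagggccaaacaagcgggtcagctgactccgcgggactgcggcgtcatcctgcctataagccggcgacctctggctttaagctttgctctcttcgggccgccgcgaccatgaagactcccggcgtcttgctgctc
Lamp1: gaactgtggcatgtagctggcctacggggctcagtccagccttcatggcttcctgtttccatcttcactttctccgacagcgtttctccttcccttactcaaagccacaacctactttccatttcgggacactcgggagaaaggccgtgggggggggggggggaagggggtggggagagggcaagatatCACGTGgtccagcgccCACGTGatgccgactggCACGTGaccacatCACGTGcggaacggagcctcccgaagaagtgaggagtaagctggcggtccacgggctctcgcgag

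The windows differed in the number of matches. Lamp1 held 4, whose first bases lay 61, 45, 28 and 15 bases before the start. Ctsd held 2, at 245 and 98 bases before the start, and Ctsl held 1, at 236 bases before the start. The letters CACGTG were not found in the windows of Ctsc, Ctsz and Lamp2. The longer TCACGTG was found in the windows of Ctsd and Lamp1 and not in that of Ctsl. Of all 32851 promoter windows of this length, 7.15% held CACGTG and 3.77% held TCACGTG. Among the 6669 windows of genes tested on the arrays the shares were 10.3% and 6.34%. Among the 149 windows of the other lysosome genes described below they were 18.1% and 17.4%. A match is a description of the letters and not of binding.

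The arrays carried an embryonic stem cell signature in all groups, with the 12 stem cell markers listed all measured. Their summed signal was 28732 to 31951 on the PBS arrays, 34296 to 40509 on the 100 µM arrays and 32664 to 37722 on the 5 mM arrays. Markers of primitive endoderm, the source of visceral and parietal endoderm, were present on the PBS and 100 µM arrays and much lower on the 5 mM arrays. Their summed signal over 16 tested markers was 7052 to 11397 on the PBS arrays, 10436 to 11321 on the 100 µM arrays and 1369 to 1579.5 on the 5 mM arrays, with 12 of 16 lower and none higher at 5 mM against PBS by limma (75.0% of the list, where 12.2% of all genes were called, 5.36% higher and 6.84% lower). On the 5 mM arrays the markers Gata6 and Sox17 averaged 23.6 and 31.3 signal units. Gata4, also a defining marker, averaged 194 there against 209 in PBS and was not called (limma adjusted p = 0.843). PBS replicate 1 had the highest summed signal of these markers among the PBS arrays (11397, against 7052 and 7285) and also the highest 3′/5′ ratio of the Actb control probe sets among all arrays, at 1.99. Only 3 of 10 macrophage markers were bright enough to be tested, and the means of Lyz2, Ptprc, Adgre1, Itgam and Aif1 were below 10.1 signal units in every group. Of the fibroblast markers 8 of 12 were tested and none passed at 5 mM against PBS. At 5 mM against 100 µM Thy1 rose (log2 change 1.67) and Timp3 and Fn1 fell (-1.15 and -0.43), and at 100 µM against PBS Fn1 rose (0.68) and Thy1 fell (-1.66). Of the trophoblast markers 4 of 10 were tested. Tfap2c rose at 5 mM against PBS (0.62), and Ascl2 rose at 5 mM against 100 µM (1.5) and fell at 100 µM against PBS (-1.54). Of the 12 stem cell markers, 3 rose and 3 fell at 5 mM against 100 µM, among them Dppa3 (2.01) and Klf4 (-1.71). In that comparison 13.8% of all genes rose and 15.2% fell. At 100 µM against PBS 4 rose and 3 fell, among them Klf4 (1.49) and Dppa3 (-1.51), where 11.9% of all genes rose and 12.7% fell. The part of other cell types in the results below was not tested, and fewer cells of a type and less RNA per cell cannot be told apart in these samples.

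Of the 15 probe sets, 14 were bright enough to be tested in a linear model over all arrays (limma), fitted to 8695 probe sets. The scale was log2(signal + 10.1). The probe set left out was 162271_f_at of Ctsb. A probe set was called when its p-value, adjusted by the Benjamini-Hochberg method over all tested probe sets, was below 0.05, and SE is the standard error of the model. When the arrays were set to an equal median, the median change of all tested probe sets moved to -0.09 from 0.08 for 100 µM against PBS and to 0.05 from -0.05 for 5 mM against 100 µM. The brightest probe set read 7206 to 8904 on the PBS arrays, 14976 to 24225 on the 100 µM arrays and 19733 to 34685 on the 5 mM arrays.

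Among the cysteine cathepsins, the transcript of Ctsh was lower at both doses than in PBS. Ctsh encodes cathepsin H, mainly an aminopeptidase. Its signal was 382, 101 and 105 on the PBS arrays, 68.5, 77.3, 44.5 and 53.6 on the 100 µM arrays and 8.45, 17.2, 18.9, 10.1 and 19.3 on the 5 mM arrays. The 3 groups did not overlap, and their order was PBS, 100 µM and 5 mM from high to low. PBS replicate 1 was far above the other PBS arrays. The log2 change was -2.81 ± 0.36 (SE) or 7.02-fold for 5 mM against PBS, and it was -2.21 without PBS replicate 1. Its 100 µM against PBS change was -1.29 ± 0.37, which became -0.70 without PBS replicate 1. The 5 mM against 100 µM change was -1.52 ± 0.33. Several 5 mM signals lay near the added 10.1 units, and the size moved with that offset. Across the settings other than leaving out arrays, the 5 mM against PBS value ranged between -3.46 with a floor and -1.91 with 4 times the offset.

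Ctsl, the gene of the broad endopeptidase cathepsin L, rose with the low dose and was lower with the high dose. Its signal was 1966, 1827 and 1987 on the PBS arrays, 2676, 2949, 2813 and 2203 on the 100 µM arrays and 909, 844, 945, 1028 and 716 on the 5 mM arrays. No groups overlapped, with the 100 µM arrays highest and the 5 mM arrays lowest. The 5 mM signal averaged 888 ± 117 (SD, n = 5), against 2660 ± 325 (n = 4) at 100 µM, a log2 change of -1.57 ± 0.12 (SE) or 2.98-fold (limma adjusted p = 2.08e-07). The 100 µM signal was above that of the PBS arrays, 1926 ± 86.7 (n = 3), by a log2 change of 0.46 ± 0.14 (adjusted p = 0.0239). This smaller rise did not hold throughout. It was 0.27 with arrays scaled to a common median (adjusted p = 0.296), and the call was lost without PBS replicate 2 (adjusted p = 0.0852), PBS replicate 3 (0.0518), 100 µM replicate 2 (0.0657) or 100 µM replicate 3 (0.0576). Against PBS the 5 mM change was -1.12 ± 0.13 or 2.17-fold.

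Ctsc followed a similar order by its brightest probe set. Its product cathepsin C (dipeptidyl peptidase 1) activates serine proteases of granules by trimming their ends. By the probe set 101019_at the signal was 107, 172 and 116 on the PBS arrays, 235, 227, 192 and 177 on the 100 µM arrays and 63.4, 44.5, 92.2, 85.1 and 48.8 on the 5 mM arrays. The 3 groups did not overlap, again with the 100 µM arrays highest. The gene fell at 5 mM against 100 µM, with a log2 change of -1.54 ± 0.21 (SE) or 2.90-fold (limma adjusted p = 5.69e-05). The 100 µM against PBS value was 0.64 ± 0.24 and missed the threshold (adjusted p = 0.062). It passed in 4 alternative fits, with 4 times the offset (0.0415), with only the compared groups (0.042), without PBS replicate 2 (0.0408) and without 5 mM replicate 2 (0.0478). The 5 mM against PBS change was -0.90 ± 0.23, or -0.70 without PBS replicate 2. A second probe set, 101020_at, also fell at 5 mM against 100 µM, at -0.94 ± 0.22 (adjusted p = 0.0049), with 55.1 ± 15.7 (SD, n = 5) against 112 ± 14.1 (n = 4). The third, 161251_f_at, was dim, at 21.8 ± 7.10 and 29.3 ± 6.27 in the same groups, and its value of -0.32 did not pass (95% interval -0.91 to 0.27). The suffix _f marks probes shared within a sequence family. By 101020_at and 161251_f_at the PBS arrays overlapped with those of either dose. The 100 µM against PBS values were 0.40 ± 0.25 and 0.32 ± 0.32, and neither passed (adjusted p = 0.274 and 0.498). The 5 mM against PBS values were -0.54 ± 0.24 and 0.001 ± 0.30.

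Ctsz, the gene of the carboxypeptidase cathepsin Z, was lower at the high dose. Its signal was 573, 439 and 437 on the PBS arrays, 446, 349, 443 and 350.2 on the 100 µM arrays and 195, 169.9, 248, 249 and 246 on the 5 mM arrays. The 5 mM arrays were below all others, while the 100 µM and PBS arrays overlapped. At 5 mM against 100 µM it fell, by a log2 change of -0.82 ± 0.15 (SE) or 1.77-fold (limma adjusted p = 6.66e-04). The value for 100 µM against PBS was -0.27 ± 0.17 and did not pass (adjusted p = 0.26, 95% interval -0.63 to 0.08). Against PBS, the change at 5 mM was -1.09 ± 0.16 or 2.14-fold.

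Ctsb, the gene of cathepsin B, which is both an endopeptidase and a peptidyl-dipeptidase that removes dipeptides from the carboxyl end, was read by 4 probe sets that did not give 1 picture. The brightest of them, 94831_at, had signals of 1033, 1086 and 1193 on the PBS arrays, 1041, 1083, 1025 and 1097 on the 100 µM arrays and 1118, 1153, 998, 1048 and 1122 on the 5 mM arrays. All groups overlapped. Its values were 0.03 ± 0.09 (SE) for 5 mM against 100 µM (95% interval -0.16 to 0.23, limma adjusted p = 0.822) and -0.05 ± 0.11 for 100 µM against PBS (-0.28 to 0.17, adjusted p = 0.759). The 5 mM against PBS value was -0.02 ± 0.10. The dim probe set 95608_at averaged 14.0 ± 4.50 (SD, n = 5) at 5 mM and 33.0 ± 6.02 (n = 4) at 100 µM, a fall of -0.85 ± 0.24 on the log2 scale (adjusted p = 0.0139). The dim probe set 92256_at gave 1.06 ± 0.41 for 100 µM against PBS and did not pass (adjusted p = 0.074), but did so when only the compared groups were fitted (0.0292), without 5 mM replicate 4 (0.0397) or without 5 mM replicate 5 (0.0464). Between 5 mM and 100 µM it gave -0.70 ± 0.36 (adjusted p = 0.171), which passed without 5 mM replicate 5 (-0.96, adjusted p = 0.0482). The probe set that was not tested, 162271_f_at, ranged between 5.10 and 32.1 signal units over all arrays.

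**Figure D1:**
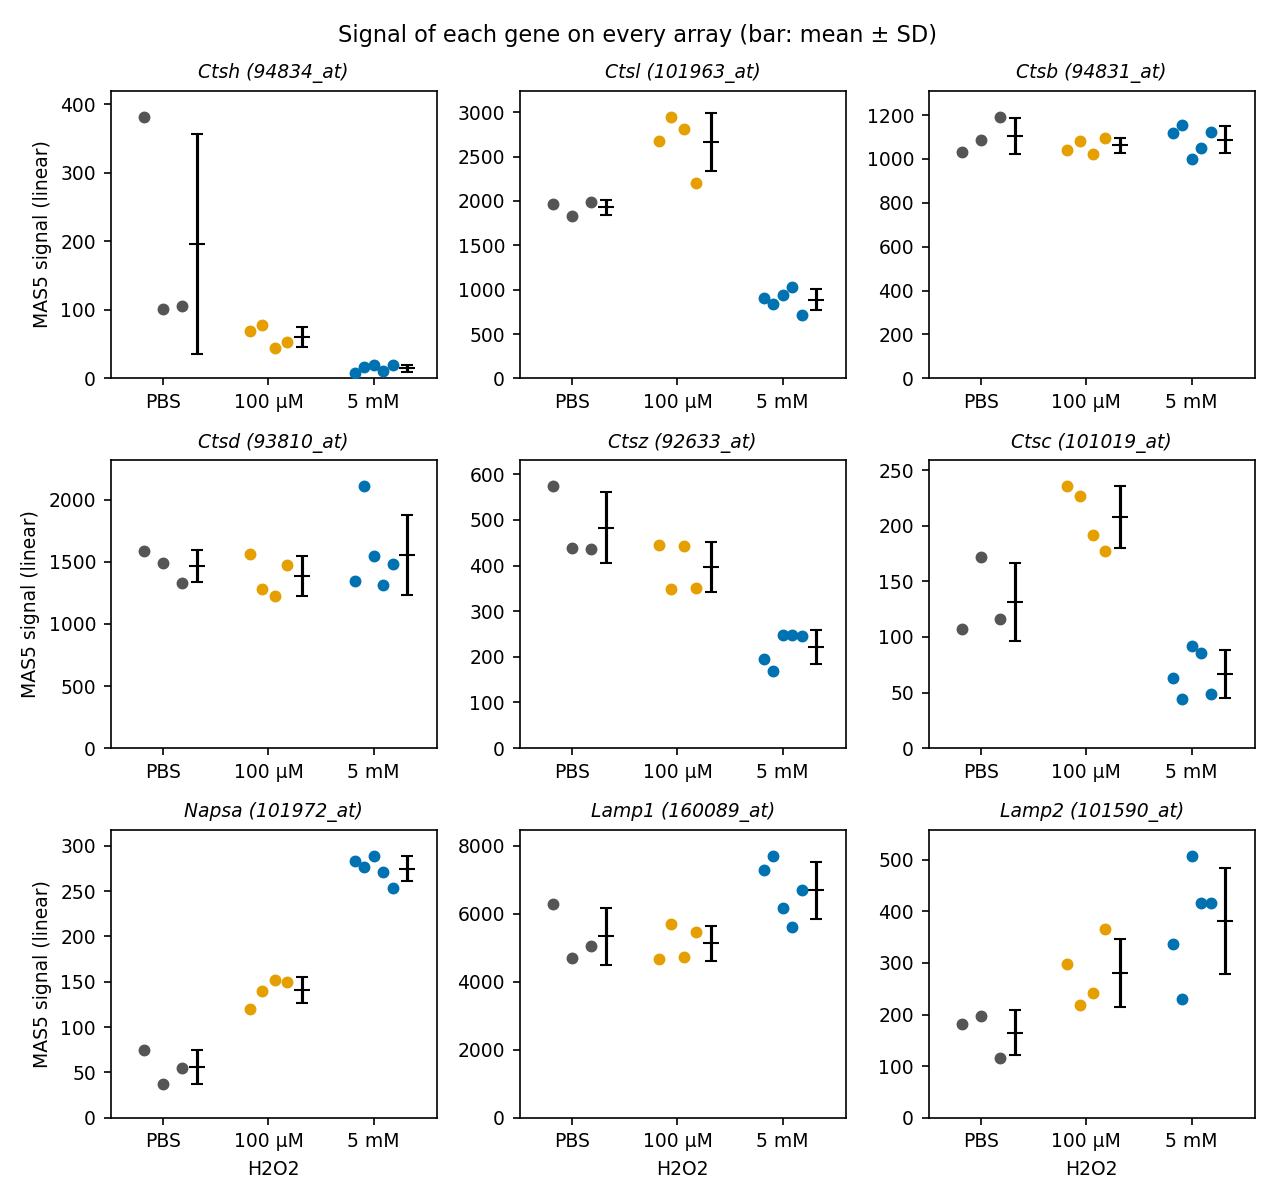
MAS5 signal of each gene (y axis, linear scale, from 0) on every array of the PBS (n = 3), 100 µM (n = 4) and 5 mM (n = 5) groups, by the brightest probe set of the gene; points are arrays and the black bar beside them is the mean ± SD. Ctsh, Ctsl, Ctsz and Ctsc are lowest on the 5 mM arrays, Napsa is highest there with no overlap, and Ctsb and Ctsd overlap in all groups.

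The aspartic proteases behaved differently from one another. Ctsd encodes cathepsin D, the main aspartic protease of lysosomes. Its signal was 1587, 1489 and 1330 on the PBS arrays, 1564, 1279, 1221 and 1476 on the 100 µM arrays and 1348, 2108, 1545, 1309.6 and 1480.4 on the 5 mM arrays. All groups overlapped, and 5 mM replicate 2 was the highest array. The value for 5 mM against 100 µM was 0.15 ± 0.14 (SE, limma adjusted p = 0.438) with a 95% interval of -0.14 to 0.44. For 100 µM against PBS it was -0.09 ± 0.16 (-0.42 to 0.24, adjusted p = 0.729), and for 5 mM against PBS it was 0.07 ± 0.15.

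Napsa encodes napsin A, an aspartic protease related to cathepsin D that is best known from lung and kidney. Its signal was 74.5, 37.2 and 55.4 on the PBS arrays, 120.4, 139.7, 152 and 150.1 on the 100 µM arrays and 284, 276, 289, 271 and 253 on the 5 mM arrays. The groups did not overlap and stood in the order of dose, and the 5 mM arrays lay close together, with a coefficient of variation of 5.02%. The log2 change was 2.15 ± 0.18 (SE) or 4.45-fold for 5 mM against PBS, 1.23 ± 0.18 or 2.35-fold for 100 µM against PBS, and 0.92 ± 0.16 or 1.89-fold for 5 mM against 100 µM. Across all 21 alternative fits, the 5 mM against PBS value stayed between 1.73 and 2.36 and the 100 µM against PBS value between 0.93 and 1.43.

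Of the membrane proteins, Lamp2 was higher after peroxide by 1 of its 2 probe sets. LAMP2 takes part in the fusion of lysosomes with autophagosomes and, as one isoform, in chaperone-mediated autophagy. By 101590_at the signal was 182, 198 and 115 on the PBS arrays, 299, 219.5, 241 and 366 on the 100 µM arrays and 338, 230.2, 507, 415 and 416 on the 5 mM arrays. The PBS arrays were below all treated arrays, and the doses overlapped. At 100 µM the gene rose against PBS, with a log2 change of 0.74 ± 0.25 (SE, limma adjusted p = 0.038). This call was lost without PBS replicate 3 (0.52, adjusted p = 0.188), 100 µM replicate 1 (0.0801) or 100 µM replicate 4 (0.0974), with a common median (0.124), with no filter (0.0549) and with no variance trend (0.0631). The value for 5 mM against 100 µM was 0.41 ± 0.22 and did not pass (adjusted p = 0.183, 95% interval -0.05 to 0.87), but passed without 5 mM replicate 2 (0.57, adjusted p = 0.0413). Against PBS the change at 5 mM was 1.15 ± 0.24 or 2.22-fold. The dimmer probe set 100136_at gave -0.18 ± 0.18 for 5 mM against 100 µM (adjusted p = 0.501) and 0.10 ± 0.21 for 100 µM against PBS (adjusted p = 0.759). For 5 mM against PBS it gave -0.08 ± 0.20.

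Lamp1, which encodes a major glycoprotein of the lysosomal membrane, was read by a bright probe set. Its signal was 6275, 4684 and 5052 on the PBS arrays, 4668, 5691, 4731 and 5456 on the 100 µM arrays and 7291, 7692, 6173, 5602 and 6702 on the 5 mM arrays. All groups overlapped. At 5 mM against 100 µM it rose by 0.38 ± 0.13 on the log2 scale (limma adjusted p = 0.0365), a call lost in 5 of the 12 fits that left out an array (100 µM replicates 1 and 3 and 5 mM replicates 1, 2 and 5, with adjusted p up to 0.101). It was also lost after quantile normalization (0.15, adjusted p = 0.304), with no filter (0.062) and with no variance trend (0.0623). For 100 µM against PBS the value was -0.05 ± 0.15 (adjusted p = 0.843), but -0.66 and past the threshold after quantile normalization (adjusted p = 0.00106). For 5 mM against PBS it was 0.33 ± 0.14 and turned to -0.51 after quantile normalization. The signals of Lamp1 on the PBS arrays lay close to the brightest probe set of those arrays, which read 7206 to 8904.

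**Figure D2:**
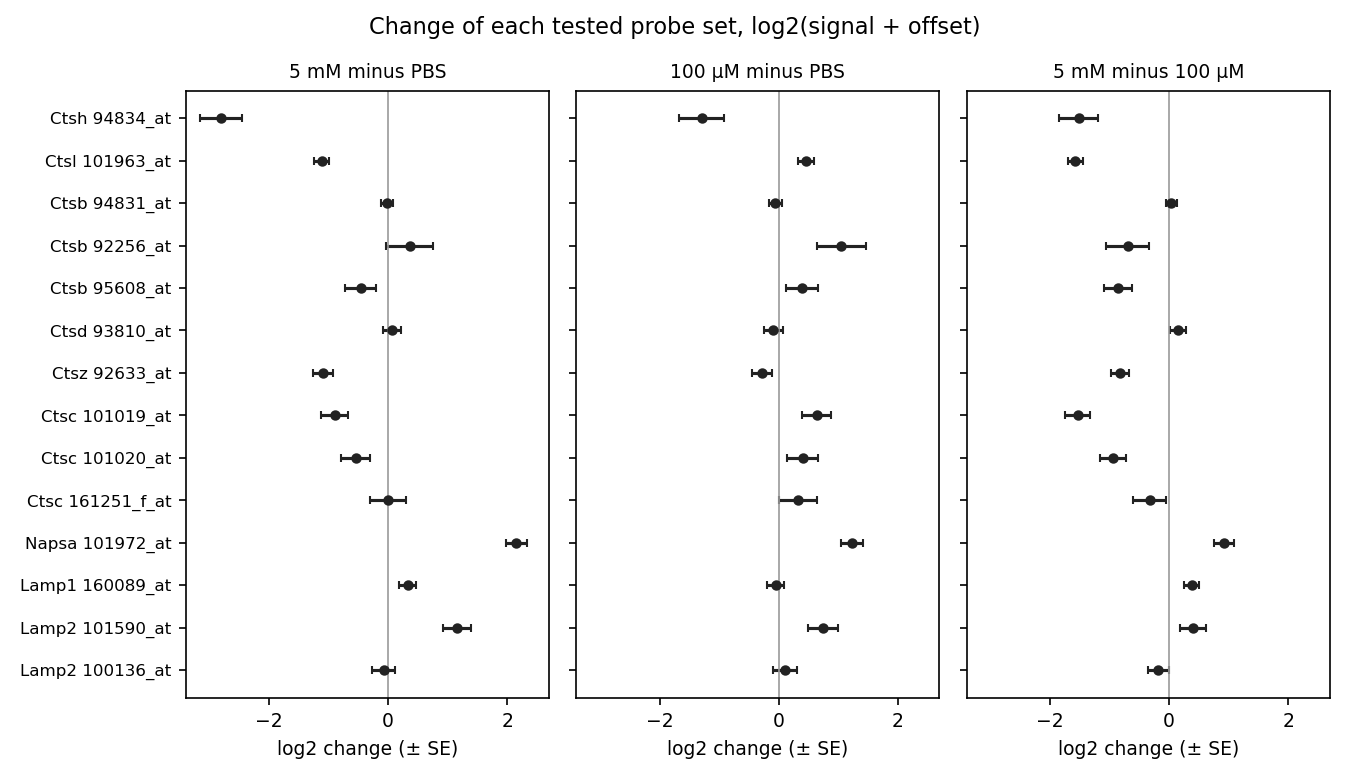
Log2 change of each of the 14 tested probe sets (rows) on the log2(signal + offset) scale for 5 mM minus PBS, 100 µM minus PBS and 5 mM minus 100 µM; points are estimates of the model and bars are ± SE. Ctsh, Ctsl, Ctsz and Ctsc (101019_at) lie left of 0 for 5 mM against either other group, Napsa lies right of 0 in all 3 comparisons, and the probe sets of Ctsb, Ctsc and Lamp2 differ among themselves.

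Counted over the 14 tested probe sets, 8 differed between 5 mM and 100 µM by limma, where 27.4% of all tested probe sets did. Of these, 2 were higher (Napsa and Lamp1), with 12.8% of all higher, and 6 lower (Ctsh, Ctsl, Ctsz, 2 of Ctsc and 1 of Ctsb), with 14.6% of all lower. For 100 µM against PBS 4 differed, where 24.0% of all did, a share close to that of the genes described here. They were Ctsl, Napsa and Lamp2, which were higher, as were 12.8% of all, and Ctsh, which was lower, as were 11.2% of all. This count was 2 with a common median, without PBS replicate 3 and without 100 µM replicate 3, and it reached 6 among the alternatives. The call of Ctsh in it was lost without PBS replicate 1 or without 100 µM replicate 3. For 5 mM against PBS 6 differed, 2 higher and 4 lower, where 11.7% of all did, 5.68% higher and 6.03% lower. The genes were chosen on this comparison, so nothing is read from that count. The counts of the other comparisons, above and below, include Ctsh and Napsa and reuse the 5 mM or the PBS arrays. They are therefore a description of these genes and not evidence that the set differs from all probe sets. Counted by groups whose arrays did not overlap, the 5 mM arrays were above the 100 µM arrays for 1 probe set and below them for 6, where 11.3% of all tested probe sets lay above and 13.0% below. The 100 µM arrays were above the PBS arrays for 6 and below them for 1, where 18.4% of all lay above and 13.5% below. The 5 mM arrays were above the PBS arrays for 2 and below them for 5, where 9.61% of all lay above and 10.4% below. The median log2 change over the 14 was -0.51 for 5 mM against 100 µM, 0.36 for 100 µM against PBS and -0.05 for 5 mM against PBS, where that of all tested probe sets was -0.05, 0.08 and 0.01. Ctsb and Ctsc each enter these counts with 3 probe sets, and Lamp2 with 2. With 1 probe set per gene, the brightest, the medians over the 9 genes were near 0, at 0.03 for 5 mM against 100 µM, -0.05 for 100 µM against PBS and -0.02 for 5 mM against PBS, so the sign of the first 2 medians depended on that choice. The first of these comparisons then had 2 genes higher and 4 lower, where 13.8% of all tested genes were higher and 15.2% lower. The second had 3 higher and 1 lower, where 11.9% of all tested genes were higher and 12.7% lower. The 5 mM comparisons share the 5 mM arrays and the PBS comparisons share the PBS arrays, so these counts are not independent. Relative to the median of all tested probe sets, the change at 5 mM against 100 µM was -1.52 for Ctsl, -1.49 for Ctsc (101019_at) and -0.77 for Ctsz, and at 100 µM against PBS it was 0.38 for Ctsl and 0.66 for Lamp2.

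Set beside the primitive endoderm markers, several cysteine cathepsins shared some of the order of the groups. The marker sum was lowest on the 5 mM arrays, as were Ctsh, Ctsl, Ctsz and Ctsc (101019_at). At 5 mM against 100 µM 13 of the 16 markers fell and none rose, where 15.2% of all genes fell and 13.8% rose. Their median log2 change was -2.64, against -1.57 for Ctsl and -0.82 for Ctsz. At 100 µM against PBS 6 of the 16 markers rose and none fell, where 11.9% of all genes rose and 12.7% fell. Ctsl also rose, while Ctsz did not pass and Ctsh read lower. PBS replicate 1, with the highest marker sum among the PBS arrays, also had the highest PBS signals of Ctsh (382) and Ctsz (573), but the lowest of Ctsc (107). Ctsb by its bright probe set and Ctsd did not follow the marker sum. The part of the marker-bearing cells in the cathepsin values was not tested.

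**Figure D3:**
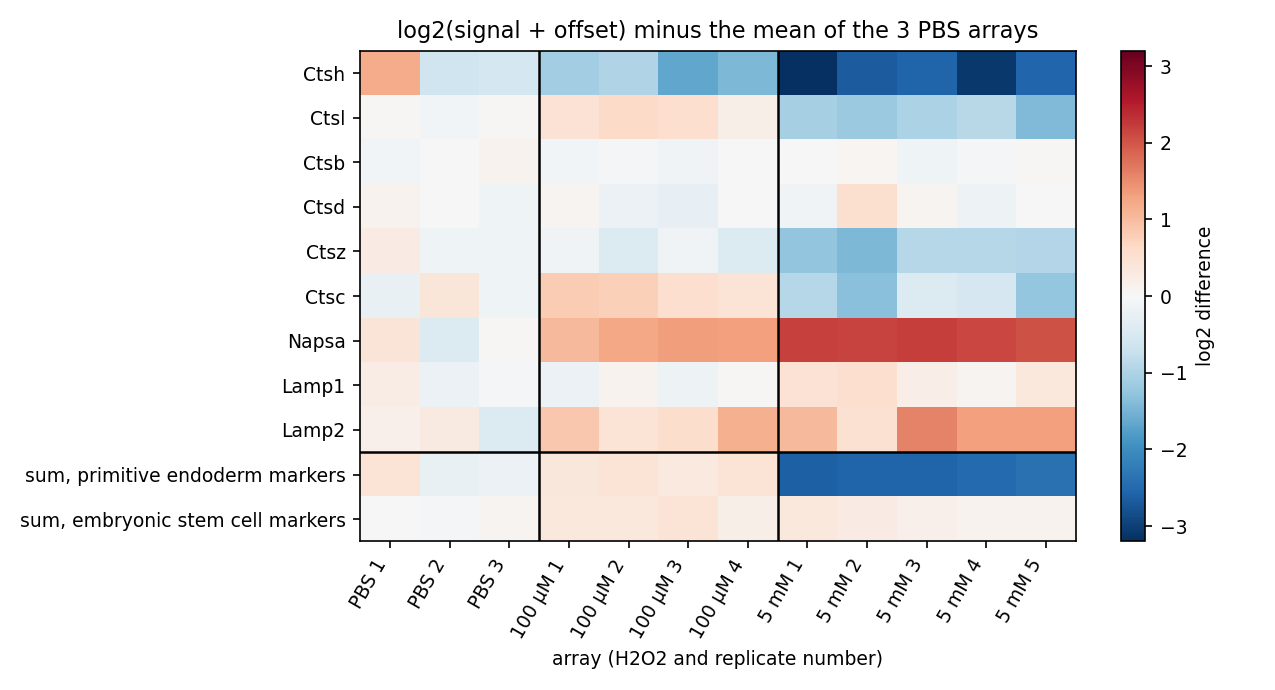
Difference in log2(signal + offset) of each array (columns, grouped as PBS, 100 µM and 5 mM with replicate numbers) from the mean of the 3 PBS arrays, for the brightest probe set of each of the 9 genes (upper rows) and for the summed signal of the primitive endoderm and embryonic stem cell markers (lower rows); red is higher and blue lower. The 5 mM columns are blue for Ctsh, Ctsl, Ctsz, Ctsc and the primitive endoderm sum and red for Napsa, and Ctsh is red on PBS replicate 1 alone.

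Across the 12 arrays, Ctsl and Ctsc (101019_at) had a Pearson correlation of 0.94 on the log2 scale, and Ctsh and Ctsz one of 0.89. Ctsh and Napsa had a correlation of -0.84. These are descriptions of points that share the 3 groups. With the group means taken out, the correlation was 0.54 for Ctsl and Ctsc, 0.39 for Ctsh and Ctsz, and 0.56 for Ctsh and Napsa.

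The genes outside this set whose log2 signals were most like those of Ctsh over the 12 arrays were Krt18 (r = 0.96), Lgmn (0.95), Cdc42se2 (0.95), Clu (0.93) and P4ha1 (0.93). Krt18 encodes an epithelial keratin, Lgmn the lysosomal protease legumain, Clu the secreted chaperone clusterin and P4ha1 a subunit of the enzyme that hydroxylates collagen prolines. All 5 had their lowest mean on the 5 mM arrays and their highest on the PBS arrays, as with Lgmn at 395 in PBS, 294 at 100 µM and 109.6 at 5 mM. Those most like Napsa were Pkm (r = 0.96), Anxa6 (0.96), Rpl19 (0.95), Trim28 (0.95) and Ldha (0.95). Pkm and Ldha encode glycolytic enzymes, Rpl19 a ribosomal protein, Anxa6 an annexin and Trim28 a corepressor. Of these, Pkm, Rpl19, Trim28 and Ldha read 11447 to 16964 on average on the 5 mM arrays and 4217 to 5928 on the PBS arrays, the range in which the brightest signals of the groups differed. Napsa averaged 274 ± 13.8 (SD, n = 5) at 5 mM and 55.7 ± 18.6 (n = 3) in PBS, below this range. Its 5 mM against PBS value was 2.10 after quantile normalization. The part of the differing brightest signals in the Napsa values was not tested.

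The wider lysosomal pathway was described by 6 lists, with 155 genes in all, of which 94 had a probe set with 1 symbol and 84 were tested. The lists were chosen with earlier results of these data known, and the genes named are those with the largest changes. Their p-values, here and in the other comparisons below, are therefore a description and not independent evidence. At 5 mM against PBS 4 rose, 5 fell and 75 did not pass by limma, or 10.7%, where 12.2% of all 6414 tested genes were called (5.36% higher and 6.84% lower). The share of the listed pathway was thus near the background. The median log2 change was -0.07, against -0.01 over all genes. Lgmn, whose product legumain processes cathepsin precursors, fell most, to 109.6 ± 18.6 (SD, n = 5) at 5 mM against 395 ± 143 (n = 3) in PBS, a log2 change of -1.72 ± 0.20 (SE, adjusted p = 2.73e-05). The lysosomal mannosidase gene Man2b1 fell by 0.94 (adjusted p = 5.17e-04) and Vps16, a subunit gene of the complex that tethers vesicles to lysosomes, fell by 0.90 (0.00173). These 3 calls held without each array in turn, and the other 6 named did not. The carboxypeptidase gene Scpep1 (-0.75) lost its call without PBS replicate 2 (adjusted p = 0.0517) or 3 (0.0534), the retromer gene Vps35 (0.58) without PBS replicate 2 (0.0627) or with a common median (0.0721), and the proton pump gene Atp6v1b2 (0.45) without PBS replicate 2 (0.0567) or 3 (0.0767) or with a common median (0.106). The pump gene Atp6v1h (0.49), the membrane protein gene Scarb2 (-0.45) and the acid phosphatase gene Acp2 (0.73) lost theirs in 5, 7 and 10 of the 12 fits that left out an array, with adjusted p up to 0.163, 0.151 and 0.137. PBS replicate 3 was among these arrays for all 3 genes, and over all alternatives their calls were lost in 10 of 21, 12 of 21 and 16 of 20. Neither tested cystatin passed at 5 mM against PBS (2 tested; Cst3 -0.27, adjusted p = 0.143, unadjusted p = 0.0319; Cstb 0.06, adjusted p = 0.776). The number of lysosome genes called was 4 without PBS replicate 2 and 5 without PBS replicate 3.

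At 100 µM against PBS 9 of the 84 rose and 7 fell by limma, or 19.0%, where 24.6% of all genes were called (11.9% higher and 12.7% lower), with a median of -0.01 against 0.04. Cst3, which encodes the secreted inhibitor cystatin C, rose to 1961 ± 102 (SD, n = 4) at 100 µM against 1318 ± 123 (n = 3) in PBS, a log2 change of 0.57 ± 0.12 (SE, adjusted p = 0.00315), and was 0.38 with a common median (0.0733). Ctsa, the gene of the carboxypeptidase cathepsin A, fell by 0.52 (adjusted p = 0.0117). The membrane protein genes Scarb2 and Cd68, the last also on the macrophage list, fell by 1.08 (1.20e-04) and 0.68 (0.00827), and Hexa, of the hexosaminidase alpha subunit, fell by 0.83 (0.00206). Creg1 rose by 1.35 (adjusted p = 0.0146), but averaged 7.02 signal units in PBS, below the offset. Those 6 calls held without each array in turn. Mitf, a transcription factor gene related to TFEB, rose by 1.00 (adjusted p = 0.0151) but lost its call without PBS replicate 1 (0.75, adjusted p = 0.0715), and the pump gene Atp6v0e (-0.58) lost its call without PBS replicate 3 (0.0507). Atp6v1d (0.41), of another pump subunit, lost its call without PBS replicate 2 (0.0584) or 3 (0.0532) and with a common median (0.23, adjusted p = 0.301). The named genes Atp6v0d1 (-0.45), Acp2 (0.79), Cd164 (0.57) and Ap1m1 (0.52) lost theirs in 4, 4, 5 and 7 of the 12 fits, each time with PBS replicate 2 among the arrays, with adjusted p up to 0.137, 0.0784, 0.118 and 0.161. Over all alternatives their calls were lost in 8 of 21, 6 of 20, 8 of 21 and 12 of 21. The number called was 10 without PBS replicate 3.

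At 5 mM against 100 µM 6 of the 84 rose and 15 fell by limma, or 25.0%, where 29.0% of all genes were called (13.8% higher and 15.2% lower), with a median of -0.06 against -0.04. The largest fall was again that of Lgmn, at -1.36 ± 0.18 (SE, adjusted p = 4.19e-05). Cst3 fell to 1093 ± 117 (SD, n = 5) at 5 mM against 1961 ± 102 (n = 4) at 100 µM, a log2 change of -0.84 (adjusted p = 2.46e-05). The membrane protein genes Laptm5 and Cd164 fell by 0.99 and 0.89 (adjusted p = 5.48e-04 and 6.83e-04), the pump accessory gene Atp6ap2 by 0.77 (0.00125), Man2b1 by 0.75 (5.85e-04) and Vps16 by 0.60 (0.0062). Hexa (0.80, adjusted p = 6.55e-04), Atp6v0d1 (0.68, 0.00101), Scarb2 (0.63, 0.00151), Atp6v1b2 (0.56, 5.56e-04) and Vps35 (0.53, 0.00442) rose. These 12 calls held without each array in turn. Ggh (0.75), of the lysosomal gamma-glutamyl hydrolase, lost its call without 100 µM replicate 4 (adjusted p = 0.0762), 5 mM replicate 1 (0.0759) or 5 mM replicate 5 (0.0609), and Ap3d1 (-0.44), of an adaptor complex that sorts proteins to lysosomes, lost its call without 100 µM replicate 2 or 3 or 5 mM replicate 1, 2 or 5 (adjusted p up to 0.106), with a common median (0.191) and with no variance trend (0.0543). By list, the V-ATPase had 2 higher and 3 lower of 15, other hydrolases 2 and 5 of 25, other membrane proteins 1 and 3 of 15, sorting and transcription factors 1 and 2 of 19, other cathepsins 0 and 1 of 8 and cystatins 0 and 1 of 2.

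**Figure D4:**
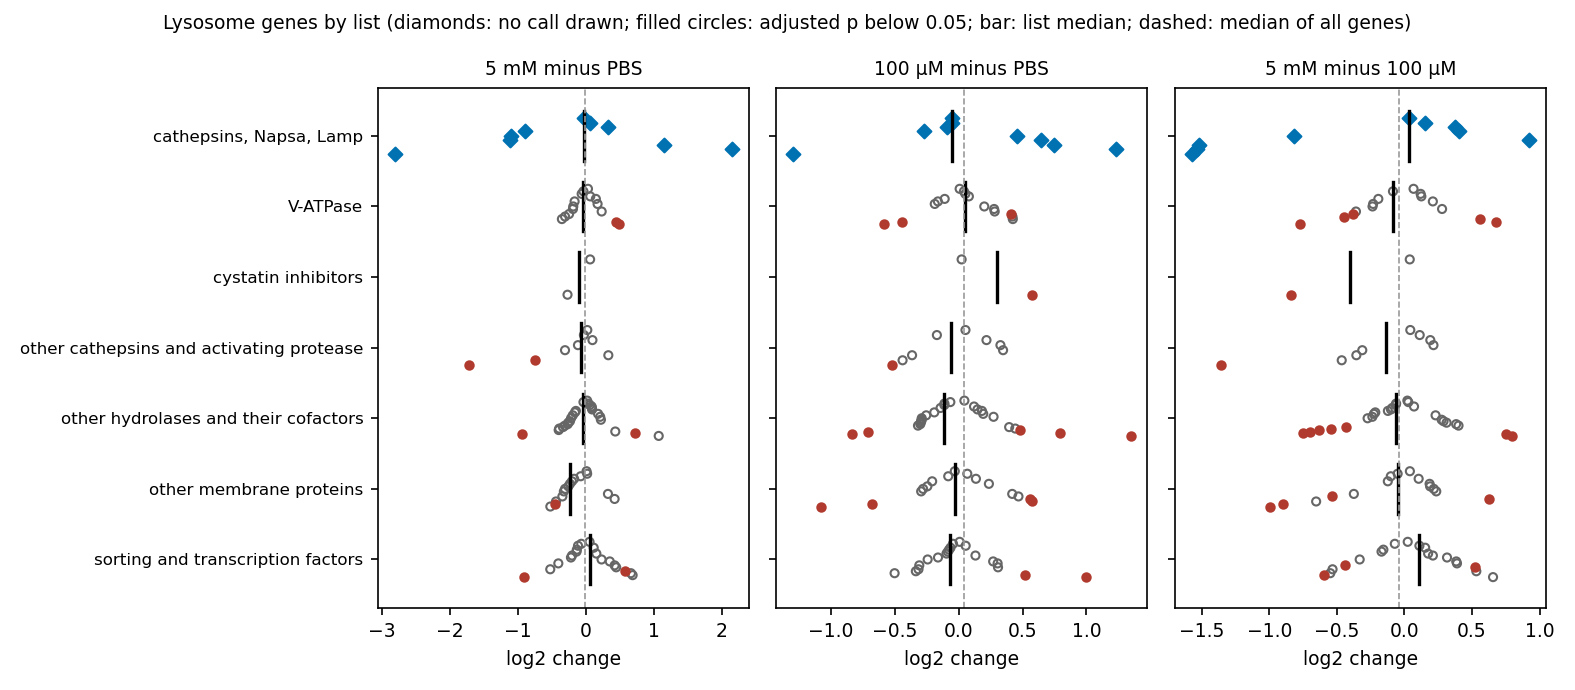
Log2 change (x axis) of the 9 genes described here (diamonds, no call drawn) and of the 84 tested genes of the 6 other lysosome lists (circles, filled where the adjusted p is below 0.05), for 5 mM minus PBS, 100 µM minus PBS and 5 mM minus 100 µM; black bars are list medians and the dashed line is the median of all tested genes. Most circles lie within 1 log2 unit of 0, with Lgmn the leftmost for 5 mM minus PBS (-1.72).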

How the data were processed

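The authors deposited 1 table of intensities for 12 arrays, one linear value per probe set and array. Their processing notes name MAS5, without a version or target, and detection calls were not used here. Means trimmed by 2% at both ends agreed across arrays to within 0.0195%, and the deposited scaling was kept. The scale was log2(signal + 10.1), where 10.1 is the 20th percentile of all values, which understates changes of dim probe sets. The 66 control probe sets were left out, and probe sets with a mean log2 value above the 30th percentile were tested, 8695 in all, standing for 6414 genes by the brightest probe set of each. Genes were named from the platform annotation, updated by Entrez number through RefSeq records of GRCm38.p6. Probe sets with several symbols were not named. A mean per group over all 12 arrays was fitted with limma 3.58.1 in R 4.3.3, with a variance trend and two-sided tests. Groups came from the sample titles. Arrays have no read depth, so the number of arrays limits the precision. The fit was tested on simulated data.

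The genes and the lysosome lists were chosen with earlier results of these data known. The rule for further names took, for Ctsh and Napsa, the 5 genes with the highest correlation, and per lysosome list and comparison up to 3 called genes with the largest change, or the 2 largest where none was called. Marker lists covered embryonic stem cells, primitive endoderm, fibroblasts, macrophages and trophoblast. Alternatives were quantile normalization, a common median, a floor, 4 times the offset, no filter, a 50th-percentile filter, a prior without variance trend, only the groups compared, the replicate number as a block, and leaving out each array.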

Additional observations from a re-analysis of the deposited data

Results flagged for a closer look

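Among 80 groups of 4 or 5 arrays (15 probe sets of the described genes and 25 named lysosome genes at each dose), 4 had an array whose distance from the nearest other exceeded Dixon's 95% limit, which chance gives in about 1 in 20 groups. None was a probe set of the cathepsins, Napsa or the Lamp genes. The PBS arrays were not examined in this way, and there Ctsh read 382 on replicate 1 against 101 and 105 on the others. Mitf read 34.8 on 5 mM replicate 3, against 48.8 to 54.3 on the other 5 mM arrays. Hexa read 299.8 on 100 µM replicate 1, against 215 to 226 on the others. Ggh read 22.5 on 100 µM replicate 4, against 32.3 to 33.2. Atp6v1d read 1159.95 on 100 µM replicate 4, against 1115 to 1118.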

How the results depend on the processing

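Of 867 values of the 14 tested probe sets of the cathepsins, Napsa and the Lamp genes under 21 alternatives, 810 kept their direction and their side of the threshold, 25 lost and 10 gained a call, and 22 turned sign. Of 793 values of the named lysosome genes, 692 kept both, 99 lost a call and 2 turned sign. The number of all probe sets called for 5 mM against PBS (1018) was 597 with the replicate number as a block (replicate block) and 493 to 1019 without an array. In that comparison the lysosome genes called (9) were 5 with the replicate block and 4 to 9 without an array. For 100 µM against PBS the probe sets of the described genes called (4) were 2 with a common median and 2 to 5 without an array, and the lysosome genes called (16) were 10 to 16. With a common median the calls split into 311 higher and 614 lower for 5 mM against PBS (494 and 524 as deposited), 574 and 1497 for 100 µM against PBS (1110 and 977), and 1412 and 871 for 5 mM against 100 µM (1113 and 1272). The replicate block also ended the calls of Lamp2 (101590_at) for 100 µM against PBS (0.64, adjusted p = 0.0978), of Lamp1 for 5 mM against 100 µM (0.37, adjusted p = 0.0832) and of named lysosome genes. These were Scpep1 (adjusted p = 0.0638), Scarb2, Acp2 and Atp6v1h for 5 mM against PBS, Atp6v0d1, Ap1m1, Atp6v1d and Cd164 for 100 µM against PBS, and Ggh and Ap3d1 for 5 mM against 100 µM. The values that turned sign follow. For 5 mM against PBS, quantile normalization gave -0.51 for Lamp1, -0.10 for Ctsc (161251_f_at), 0.014 for Ctsb (94831_at) and -0.0361 for Cstb. A common median gave -0.0379 for that Ctsc probe set, -0.0073 for Ctsd and -0.0113 for Cstb, and 4 times the offset and the replicate block gave -0.0125 and -0.0235 for that Ctsc probe set. For 100 µM against PBS, Lamp2 (100136_at) was -0.0819 after quantile normalization and -0.0558 with a common median, and Ctsb (94831_at) was 0.0045 after quantile normalization. Without an array, the 5 mM against PBS values ranged over -0.13 to 0.0162 for Lamp2 (100136_at), -0.33 to 0.24 for Ctsc (161251_f_at), -0.0468 to 0.12 for Ctsd and -0.0662 to 0.0368 for Ctsb (94831_at). The 100 µM against PBS values ranged over -0.14 to 0.0731 for Lamp1, -0.0118 to 0.56 for Ctsc (161251_f_at) and -0.10 to 0.0028 for Ctsb (94831_at). The cause was not tested. Same-numbered arrays of different groups had correlations of deviations between -0.18 and 0.15 (10 pairs), with 2 of them above 0.1. Differently numbered arrays of different groups had correlations between -0.16 and 0.18 (37 pairs), with 5 of them above 0.1. These ranges were alike, so the numbers were not taken to pair samples. Ctsh has no value under the filter at the 50th percentile, where its probe set was not tested. Dim probe sets, with signals near 10.1, have a size of change that depends on the offset.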
